A study of Mus musculus with 15 samples.

Results

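Lungs of 3 mice fed 20 ppm permethrin for 7 days were set against lungs of 3 mice fed the control diet (0 ppm) for 7 days. The comparison takes every array that the labels give to these diets, which is 6 of the 15 arrays of a study that also fed 500, 2500 and 5000 ppm to 3 mice each. All mice were females of Crlj:CD1(ICR), an outbred stock, so that each animal has a genome of its own. They were 11 weeks old per the labels and ate a powdered diet, with 20 ppm permethrin in one group and none in the other, and apart from the insecticide the labels give no difference between the groups. Each array held the labelled RNA of 1 lung.

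Permethrin is a pyrethroid insecticide, which holds voltage-gated sodium channels open and so over-excites nerve cells. Mammals split pyrethroids with carboxylesterases and oxidise them with cytochrome P450 enzymes, both of which the lung's club cells and other epithelia express. Cells that meet reactive compounds free the transcription factor Nrf2 from its inhibitor Keap1. Nrf2 then binds the antioxidant response element in front of genes for glutathione transferases, quinone reductases and thioredoxin enzymes. In rodent liver, pyrethroids are also known to activate the nuclear receptors CAR and PXR, which turn on their own set of P450 genes.

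No gene differed between the diets past an adjusted p of 0.05. Of 33262 genes fitted with limma, 18846 of them with a symbol, 0 were higher (0%) and 0 lower (0%), and the smallest adjusted p was 1. At an unadjusted p under 0.05 there were 505 genes (1.52%), of which 169 were higher at 20 ppm (0.508%) and 336 lower (1.01%), against 1663 that this threshold passes when nothing differs and the model holds. The median difference over all genes was -0.03 on the log2 scale, and the 5th and 95th percentiles were -0.48 and 0.34. The data bound most genes closely: for 23803 genes (71.6%) the 95% interval of the difference lay within 2-fold either way. An absolute difference of at least 1 on the log2 scale was measured for 245 genes (0.737%). A level is given here as log2 of the probe's signal relative to the 75th percentile of its array, and a difference as 20 ppm minus control on that scale.

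**Figure D1:**
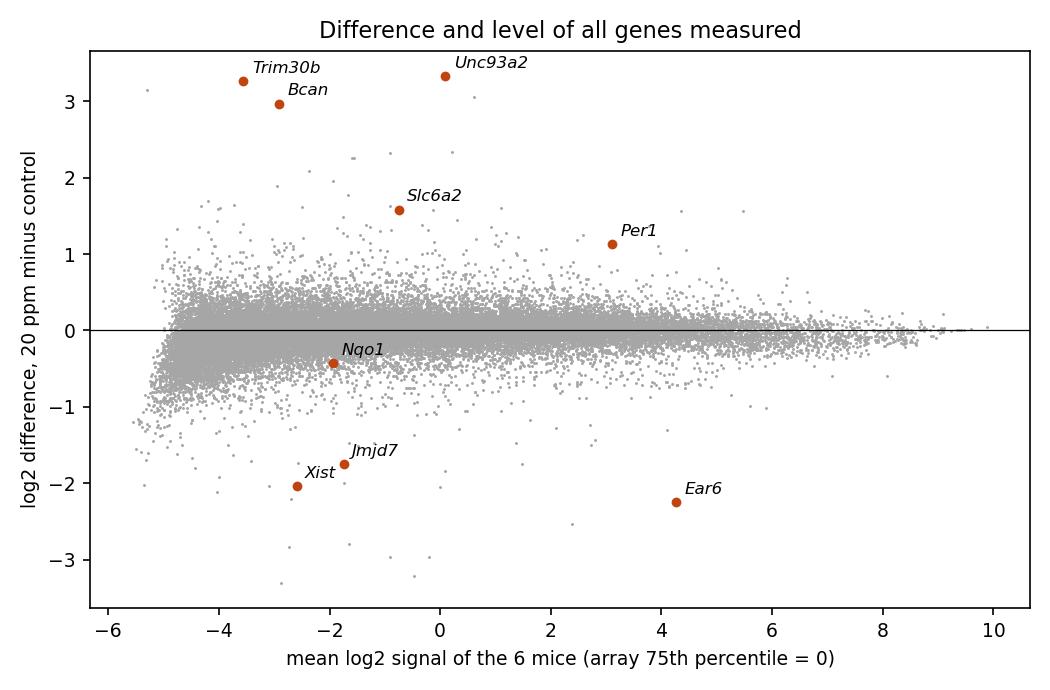
Difference between the diets (20 ppm minus control, log2) against the mean level of the 6 mice (log2 signal, array 75th percentile at 0) for the 33262 genes, each a point, with 9 named genes in colour. Most genes lie near 0, and the differences spread out and lean downward among the dimmest genes.

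The first mouse of each group stood apart from the other 4. Their levels correlated with each other at 0.99 over all genes, and at 0.973 to 0.979 with the remaining mice, which correlated among themselves at 0.988 or more. On the first principal component of the 6 arrays (53.9% of variance) 20 ppm mice 1, 2 and 3 scored -72.1, 26.3 and 27.9, against -65.6, 43 and 40.6 for control mice 1, 2 and 3. The second component (14.1%) had negative scores for all 3 mice at 20 ppm (-4.3, -24.3 and -38.7) and positive ones for the controls (13.2, 31.3 and 22.8). Lysozyme 2 (Lyz2), a macrophage and type 2 cell gene, shows the split: it measured 4.48, 2.77 and 2.55 at 20 ppm, against 4.97, 2.40 and 2.33 in controls. Because 1 such mouse sits in each group, differences are also given without the pair where this matters.

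The software called 70.75% to 81.45% of probes well above background at 20 ppm and 76.03% to 80.87% in controls, and no spot was saturated. Weights that limma estimated from how well each array fitted were 0.22 for 20 ppm mouse 1 and 0.23 for control mouse 1, against 1.32 to 3.29 for the other 4 arrays. Among the higher diets, mouse 3 at 500 ppm (0.15) and mouse 3 at 2500 ppm (0.25) had low weights as well. The 6 arrays lay on 1 slide, the 3 controls and 20 ppm mouse 1 in row 1 and 20 ppm mice 2 and 3 in row 2. Row and diet were thus partly aligned, and the part of the row was not tested. Direction went with signal: in the dimmest of 3 equal sets of genes the 3 mice at 20 ppm all lay below the 3 controls for 9.44% and above them for 1.51%, and the median difference was -0.12. In the brightest set these shares were 1.39% and 1.18%, with a median difference of 0.01. The median gene of 20 ppm mouse 1 lay 0.19 below its mean over the 6 mice, and that of control mouse 1 lay 0.13 below. A probe was kept if well above background on all 3 arrays of either diet, so a dim gene could enter through the controls alone. Of the 6 arrays, 20 ppm mice 2 and 3 had the lowest shares of such probes (70.75% and 71.5%). The part that signal, this filter or the first mice played in the excess of lower genes was not tested.

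The main marker genes of the lung's epithelial cell types lay at like levels in both groups. Surfactant protein C (Sftpc), the defining gene of alveolar type 2 cells, measured 9.11, 9.53 and 9.47 at 20 ppm, against 9.38, 9.41 and 9.32 in controls, a difference of 0.00 ± 0.15 (SE). The club cell secretoglobin Scgb1a1 differed by 0.02 ± 0.20, the type 1 cell receptor Ager by 0.12 ± 0.21 and the ciliary regulator Foxj1 by -0.06 ± 0.30, each with overlapping groups. Medians over marker lists were 0.03 for both type 2 cells (17 genes) and club cells (14 genes), 0.08 for type 1 cells (13 genes) and -0.10 for ciliated cells (18 genes). Of the ciliated genes 4 lay above 0 and 2 wholly lower at 20 ppm, beside 44.4% and 4.38% of all genes. The list of goblet, basal and neuroendocrine cells (13 genes) had a median of -0.21, with 2 above 0 and 2 wholly lower. In whole lung, fewer cells of a type and less RNA per cell cannot be told apart.

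The 10 genes of oxidative stress and detoxification that lay higher in this study at 5000 ppm were near their control level at 20 ppm. They were chosen with that behaviour at 5000 ppm known. Their differences from control at 20 ppm ran from -0.43 to 0.40, with a median of 0.02. For all 10 the upper end of the 95% interval, 0.02 to 1.02, was under the difference from control measured for the same gene at 5000 ppm, 1.11 to 2.56. These differences share the 3 controls.

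Gsta2, a glutathione transferase of the alpha class, measured -0.93, -0.61 and -0.38 in 20 ppm mice 1 to 3, against -0.35, -0.41 and -0.42 in the controls. The difference was -0.25 ± 0.21 (limma, adjusted p = 1), with an interval of -0.70 to 0.20. The controls were tight, 20 ppm mouse 3 lay among them and mouse 1 was lowest. Nqo1, the quinone reductase that is a classic Nrf2 target, measured -1.89, -2.55 and -2.03 at 20 ppm and -1.72, -1.66 and -1.78 in controls. It was the 1 gene of the 10 whose groups did not overlap, and it lay on the lower side: the difference was -0.43 ± 0.21 (adjusted p = 1). Over all genes, 4.38% lay wholly lower and 1.49% wholly higher at 20 ppm.

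Aldh3a1, an aldehyde dehydrogenase that clears reactive aldehydes, had the highest difference of the 10. It measured 2.58, 2.93 and 3.66 at 20 ppm, against 2.72, 2.43 and 2.83 in controls, a difference of 0.40 ± 0.29, and the groups overlapped with 20 ppm mouse 3 on top. Gpx2, a glutathione peroxidase of epithelia, differed by -0.10 ± 0.24. The other 6 lay within 0.10 of control: Srxn1 (sulfiredoxin) at 0.10, Txnrd1 (thioredoxin reductase) at 0.07, Aox1 (aldehyde oxidase) at 0.06, Cbr3 (carbonyl reductase) at 0.03, Osgin1 (oxidative stress induced growth inhibitor) at 0.01 and Entpd5 (a nucleoside diphosphatase of the endoplasmic reticulum) at 0.00. Their intervals reached at most 0.51 upward and -0.39 downward.

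**Figure D2:**
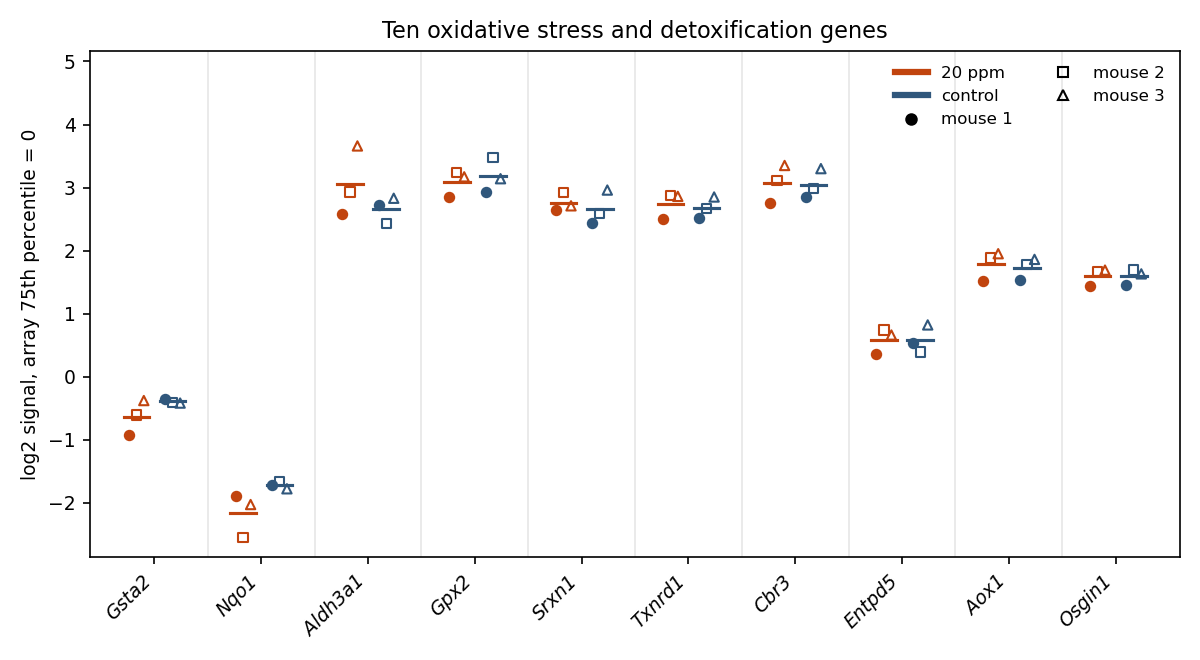
Level (log2 signal, array 75th percentile at 0) of 10 oxidative stress and detoxification genes in each mouse at 20 ppm (left of each pair) and on the control diet (right), with the mean of 3 mice as a line. The groups overlap for every gene but Nqo1, which lies lower at 20 ppm.

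Promoter windows are shown for 2 of the 10 genes, as examples of the element through which Nrf2 acts. In RefSeq's GRCm38.p6 windows of 300 bases (250 before to 50 after the gene's start), 9 of the 10 genes had at least 1 window. The antioxidant response element core was searched on both strands as TGACNNNGC, which 12.4% of all 32851 windows hold, and as TGAGTCAGC, which 0.414% hold. The first was found for Srxn1 and Txnrd1 and the second for Srxn1 and Osgin1, and a window without a match says nothing about sites farther off. Shown 5′ to 3′ on the strand of the gene, both on the plus strand, with the matches in capitals, are the windows of Srxn1 (chr2:152105274-152105573) and Osgin1 (chr8:119436897-119437196):
Srxn1: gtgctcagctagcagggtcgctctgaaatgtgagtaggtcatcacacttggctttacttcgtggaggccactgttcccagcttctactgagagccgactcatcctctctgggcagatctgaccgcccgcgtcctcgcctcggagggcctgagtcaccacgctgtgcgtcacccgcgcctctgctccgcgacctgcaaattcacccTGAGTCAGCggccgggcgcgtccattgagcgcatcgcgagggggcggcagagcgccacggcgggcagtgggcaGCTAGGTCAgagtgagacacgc
Osgin1: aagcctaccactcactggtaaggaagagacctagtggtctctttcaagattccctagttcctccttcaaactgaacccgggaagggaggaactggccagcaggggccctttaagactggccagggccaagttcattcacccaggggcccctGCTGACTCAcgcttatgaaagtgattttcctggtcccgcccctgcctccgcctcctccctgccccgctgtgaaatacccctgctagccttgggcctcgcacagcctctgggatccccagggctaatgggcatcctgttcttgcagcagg
These 2 genes, which measured 1.61 and 1.11 above control at 5000 ppm, stood at 0.10 ± 0.19 and 0.01 ± 0.15 at 20 ppm.

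Set directly against each other, 5000 ppm lay above 20 ppm for all 10, by 1.06 (Aox1) to 2.81 (Gsta2), with limma's adjusted p between 0.0001119 and 0.04721. In that comparison 16 genes were higher (0.0481%) and 3 lower (0.00902%) at 5000 ppm, and 1977 had an unadjusted p under 0.05 (5.94%). The 10 had been chosen for their level at 5000 ppm, so the calls are a description and no separate evidence. All arrays at 5000 ppm lay on the other slide, and slide and diet cannot be told apart there. Gsta2, Nqo1 and Gpx2 were called under all 21 alternative settings and Aldh3a1 and Aox1 under 9 of them.

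The wider Nrf2 and glutathione list behaved like the 10. Of 49 measured members, 23 lay above 0 and the median was 0.00, beside -0.03 over all genes. None passed the adjusted threshold, and 1 had an unadjusted p under 0.05: Abcc1, which pumps glutathione conjugates out of cells, measured -0.64, -1.25 and -1.36 at 20 ppm and -0.97, -0.47 and -0.43 in controls, a difference of -0.46 ± 0.21 (adjusted p = 1). The groups overlapped through the first mice, and without both of these the difference was -0.86. At the other end of the list was Gpx3, the secreted glutathione peroxidase, at 0.72 ± 0.63. It was high in the first mouse of each group, 5.27 at 20 ppm and 5.02 on the control diet.

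Genes for enzymes of the kinds that handle permethrin had list medians near 0. Of 38 measured lung P450 and other phase I genes, 21 lay above 0 (median 0.03) and none had an unadjusted p under 0.05. The ends of this list were Cyp26b1, which clears retinoic acid, at 1.05 ± 0.83, and the alcohol dehydrogenase Adh7 at -0.38 ± 0.59, both with overlapping groups. Cyp2b10, the P450 most used as a readout of CAR, measured 6.19, 7.06 and 7.13 at 20 ppm, against 6.20, 6.73 and 6.88 in controls. Its difference was 0.19 ± 0.24, with an interval of -0.33 to 0.71, and the groups overlapped with the first mouse lowest in each.

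The club cell P450 Cyp2f2 differed by -0.09 ± 0.20, Cyp4b1 by 0.13 ± 0.19 and Cyp1a1, the readout of the aryl hydrocarbon receptor, by -0.09 ± 0.42. Medians were 0.10 for 25 CAR and PXR targets, -0.04 for 12 aryl hydrocarbon receptor targets and 0.03 for 17 glucuronosyl and sulfo transferases. Cyp2c50 (0.76 ± 1.08) and the sulfotransferase Sult2a1 (-0.94 ± 1.01) were the ends of the CAR and PXR list, with errors as wide as the differences. Among 11 measured carboxylesterases the median was -0.01, and none had an unadjusted p under 0.05. Ces3a, at 1.24 ± 1.14, and Ces1f, at -0.52 ± 0.34, were the ends of that list. The major lung esterase Ces1d measured 3.86, 2.41 and 2.11 at 20 ppm and 4.26, 1.90 and 1.82 in controls, highest in the first mouse of each group. Its difference was 0.14 ± 0.57, with an interval of -1.1 to 1.37, and 0.4 without the first mice.

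Sodium channel genes, which encode the insecticide's target, were measured for 13 of 14 listed members, 6 of them above 0 (median -0.06). Scn3b, a beta subunit that modifies channel gating, had the smallest p among them. It measured 4.61, 4.48 and 5.15 at 20 ppm, against 4.79, 5.45 and 5.57 in controls, and the difference was -0.52 ± 0.23 (adjusted p = 1). The groups overlapped, since control mouse 1 lay below 20 ppm mouse 3, and a second Scn3b probe gave -0.43. Scn7a, an atypical sodium channel that senses salt, differed by -0.35 ± 0.21 with overlapping groups, and by -0.60 without the first mice. Scn2b was wholly lower at 20 ppm (-4.42, -5.18 and -3.96, against -3.94, -3.84 and -3.85), at a level where 1 of the 3 arrays at 20 ppm was not well above background. At the other end, Scn1a differed by 0.79 ± 0.48 near background.

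The remaining genes are those with the smallest p among genes whose groups did not overlap, and none of them passed the adjusted threshold. Over all genes, 497 lay wholly higher and 1456 wholly lower, 1953 in all (5.87%). Because these genes were picked for small p, their sizes are descriptions.

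Slc6a2, the noradrenaline transporter that lung endothelium and sympathetic nerve endings use to take up noradrenaline, had the smallest p of all genes named here. It measured 0.27, 0.01 and -0.16 in the mice at 20 ppm, against -1.40, -1.44 and -1.79 in the controls. Every mouse at 20 ppm was above every control by more than the spread of either group (SD 0.22 in both), and the difference was 1.58 ± 0.33, or 3.00-fold (adjusted p = 1). Without the first mice it was 1.54, and over the alternative settings it ran from 1.29 to 1.69. The higher diets, which share these 3 controls, lay above them by 1.03 at 500 ppm, 1.57 at 2500 ppm and 1.67 at 5000 ppm. All 12 mice on permethrin, at -1.03 to 0.66, were above the highest control, and 5000 ppm differed from 20 ppm by 0.09 ± 0.33.

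Hk2 and Cdh1 had smaller differences. Hk2, hexokinase 2 of glycolysis, measured -0.90, -0.68 and -0.43 at 20 ppm, against -1.26, -1.34 and -1.14 in controls, a difference of 0.57 ± 0.20 (adjusted p = 1). Cdh1, the epithelial cadherin, measured 2.22, 2.44 and 2.35 at 20 ppm and 2.0, 1.48 and 1.36 in controls, a difference of 0.73 ± 0.22 (adjusted p = 1). Among the 12 wholly higher genes described here, 5 had all 12 mice on permethrin above all 3 controls (Slc6a2, Cacnb2, Cdh1, Hk2 and Ccdc160), whereas it was 4 of the 12 mice for Psg23, 5 for Cfap74 and 6 for Vmn1r227. These genes were picked because the same 3 controls lay low, so the count over the other diets is no separate evidence. When limma weighted arrays by their agreement with the fit, 35 genes were called, most of them lower at 20 ppm. Cdh1 was among the few called higher, at 0.94 with an adjusted p of 0.03491.

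Others wholly higher at 20 ppm were Wars, the tryptophanyl transfer RNA synthetase, at 0.66 ± 0.17, and Itga2, the collagen-binding integrin alpha 2 subunit, at 0.83 ± 0.23. Wars measured 5.24, 5.56 and 5.41 at 20 ppm and 4.43, 4.91 and 4.90 in controls, and a second, dimmer probe gave 0.53. Cacnb2, a beta subunit of voltage-gated calcium channels, differed by 0.48 ± 0.14 and was also called with array weights (0.64, adjusted p = 0.03967), but a second, dimmer probe gave -0.15. Slc17a2, of the phosphate cotransporter family, differed by 1.64 ± 0.44 at a dim level, and Ccdc160, a coiled-coil protein, by 0.58 ± 0.20.

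A few of the higher genes have limits of identity. Psg23, of the pregnancy-specific glycoproteins (0.64 ± 0.16), and Vmn1r227, of the vomeronasal receptors (1.07 ± 0.31), belong to families of close copies that a probe can share. Cfap74, a ciliary protein, lay at 0.67 ± 0.21 by its brightest probe, while its other probes gave 0.06 and -0.22.

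**Figure D3:**
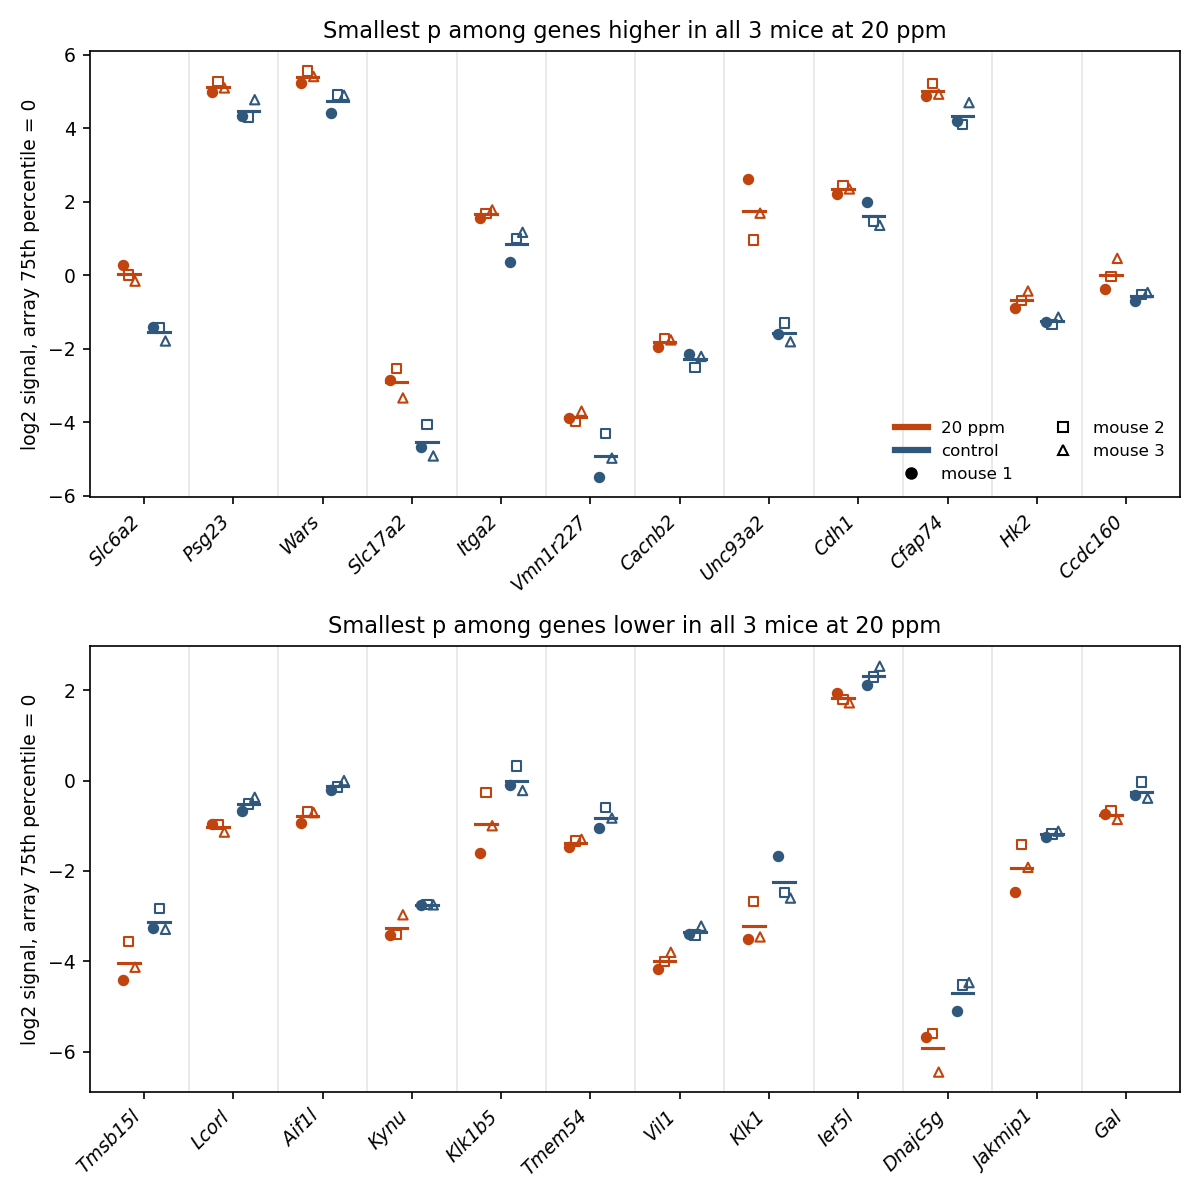
Level (log2 signal, array 75th percentile at 0) in each mouse of the 12 genes with the smallest p among those wholly higher at 20 ppm (upper panel) and wholly lower (lower panel), 20 ppm left and control right of each pair, with the mean of 3 mice as a line. Slc6a2 and Unc93a2 show the widest gaps among the higher genes.

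On the lower side the differences were smaller, mostly under 1 on the log2 scale. Tmsb15l, of the actin-binding beta thymosins, measured -4.42, -3.56 and -4.13 at 20 ppm, against -3.27, -2.83 and -3.29 in controls, a difference of -0.91 ± 0.22 (adjusted p = 1). Kynu, kynureninase of tryptophan breakdown, measured -3.41, -3.40 and -2.97 at 20 ppm and -2.76, -2.74 and -2.75 in controls, a difference of -0.51 ± 0.15. Gal, the neuropeptide galanin, differed by -0.50 ± 0.17 and Vil1, the actin bundler villin, by -0.64 ± 0.20. Aif1l, a calcium-binding relative of allograft inflammatory factor, differed by -0.67 ± 0.20, Lcorl, a nuclear receptor corepressor relative, by -0.50 ± 0.14, and Jakmip1, a microtubule-binding protein, by -0.75 ± 0.25.

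Tmem54, a membrane protein, differed by -0.55 ± 0.17 and Ier5l, a relative of an immediate early gene, by -0.49 ± 0.16. The tissue kallikreins Klk1 (-0.97 ± 0.31) and Klk1b5 (-0.95 ± 0.29) were both wholly lower, but belong to a family of close copies. Dnajc5g, of the DnaJ chaperone family, was not well above background on any array at 20 ppm and was at least 1.24-fold lower there (adjusted p = 1). Such a bound sets the bright group's mean against the dim group's. Each dim array counts at its lowest signal well above background or, if higher, at the probe's own. The bound does not take in the spread between mice. All 12 mice on permethrin lay below all 3 controls for Kynu. It was 11 of them for Tmsb15l, Aif1l, Ier5l and Jakmip1, 10 for Gal, 9 for Klk1 and 8 for Lcorl. The count was 7 for Vil1, 6 for Dnajc5g, 5 for Klk1b5 and 3 for Tmem54, for which 4 mice lay above all controls. These counts include the 3 mice at 20 ppm by which the genes were picked, and are no separate evidence.

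Dim genes among these depended on the background correction. With normexp, which adds 50 to every signal and so shrinks dim differences, Slc17a2 differed by 0.65, Vmn1r227 by 0.30 and Cacnb2 by 0.27. On the lower side the values were -0.31 for Tmsb15l, -0.50 for Klk1, -0.24 for Vil1, -0.19 for Kynu and -0.08 for Dnajc5g. Differences of the brighter genes moved less, to 1.29 for Slc6a2, 0.67 for Cdh1, 0.49 for Hk2 and -0.56 for Aif1l. Nqo1 differed by -0.25, Scn2b by -0.08 and Scn1a by 0.18 under that correction.

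The widest differences belonged to genes that vary from mouse to mouse. Unc93a2, of the Unc93 membrane protein family, measured 2.63, 0.96 and 1.69 at 20 ppm, against -1.60, -1.30 and -1.81 in controls. The groups were far apart, at 3.33 ± 1.0 or 10.1-fold (adjusted p = 1). Over all 15 mice, however, Unc93a2 took 2 levels, 0.50 to 2.63 in 8 mice and -2.03 to -1.30 in the other 7, and 5 of the 9 mice on the higher diets had the upper level.

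Trim30b, of the tripartite motif proteins, measured -2.67, -1.36 and -1.75 at 20 ppm and -5.48, -4.77 and -5.30 in controls, where no array was well above background. On the processed signal its mean was at least 9.01-fold higher at 20 ppm, by the bound explained above, which does not take in the spread between mice. The difference was 3.26 ± 1.57 on the log2 scale, with a 95% interval of -0.14 to 6.65 (adjusted p = 1). With normexp background correction it was 1.23. The 8 mice with the upper level of Trim30b (-2.67 to -1.12, against -7.31 to -4.77 in the rest) were the same 8 as for Unc93a2, a match noticed after the values were seen. Bcan, the brain proteoglycan brevican, measured -0.41, 0.04 and -3.92 at 20 ppm and -4.57, -4.28 and -4.36 in controls, so that its difference of 2.97 ± 1.39 came from 2 of the 3 mice, and was 1.67 with normexp.

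Jmjd7, a protein hydroxylase, measured -1.11, -3.23 and -3.53 at 20 ppm, against -0.73, -0.92 and -0.97 in controls. The difference was -1.75 ± 0.60 (adjusted p = 1), -2.43 without the first mice and -0.98 with normexp. Ear6, an eosinophil-associated ribonuclease with close copies, measured -0.04, 4.39 and 5.06 at 20 ppm and 5.10, 5.32 and 5.73 in controls. The difference of -2.25 ± 1.46 became -0.80 without the first mice.

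Xist, the RNA that silences 1 X chromosome in females, measured -6.95, -2.03 and -1.85 at 20 ppm, against -1.83, -1.43 and -1.45 in controls. In 20 ppm mouse 1 the probe was not well above background, whereas the other 14 mice of the study measured -2.48 to -1.39. The probes for the Y-linked genes Ddx3y and Eif2s3y were not well above background in any of the 15 mice. Of other Y-linked probes, 2 of 3 for Kdm5d were never well above background, while the third was on 9 of 15 arrays and the probe for Uty on 11 of 15, all at dim levels. The difference of -2.04 ± 0.96 (adjusted p = 1) was -0.50 without the first mice and -0.76 with normexp.

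**Figure D4:**
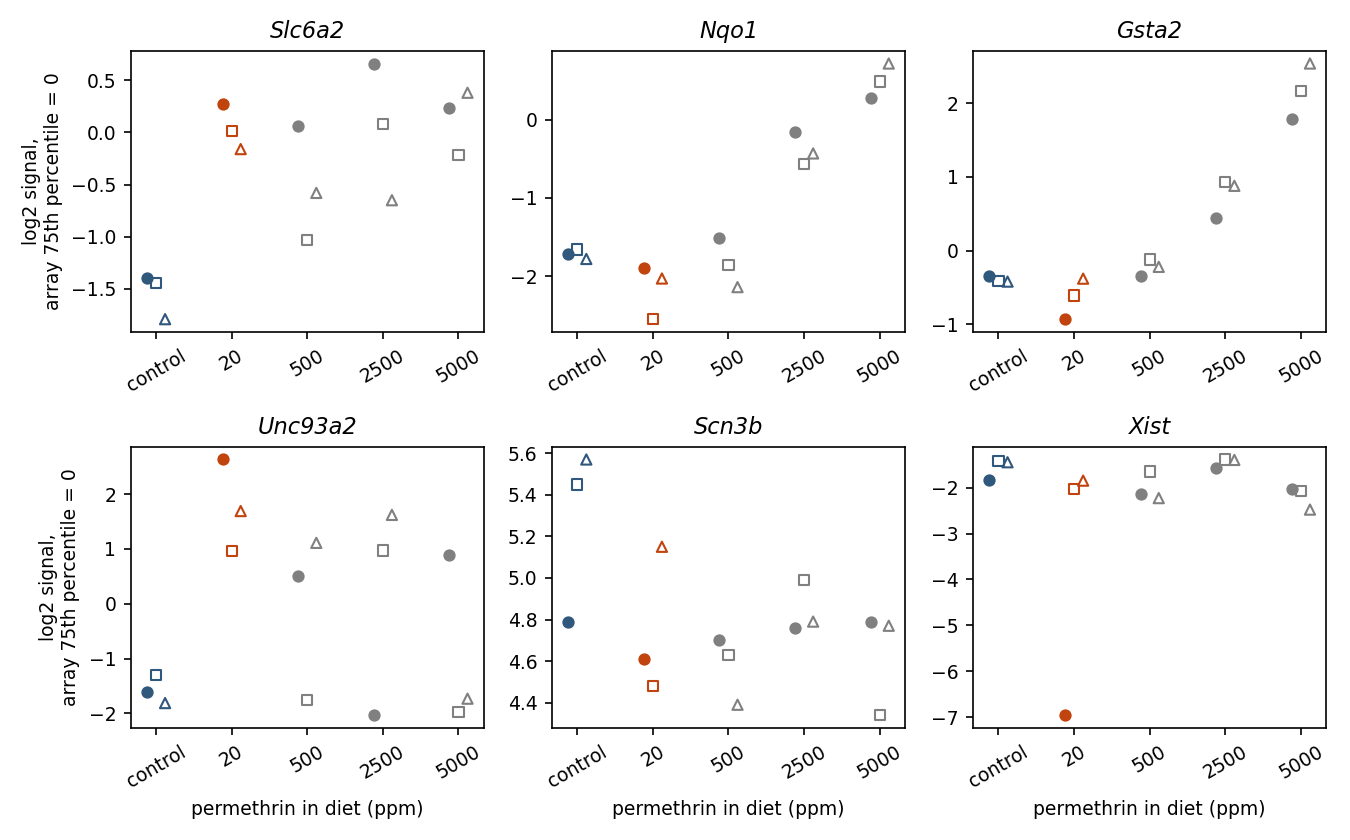
Level (log2 signal, array 75th percentile at 0) of 6 genes in all 15 mice by diet (ppm permethrin), with circles, squares and triangles for mice 1, 2 and 3. Slc6a2 lies higher at 20 ppm and on every other permethrin diet than in controls, Nqo1 and Gsta2 are high at 2500 and 5000 ppm and not at 20 ppm, Unc93a2 takes 2 levels, and Xist is low in 20 ppm mouse 1.

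Of the 46 gene lists, 44 had a median difference between -0.3 and 0.3, and none of their 859 distinct measured members passed the adjusted threshold. At an unadjusted p under 0.05 were 6 members on the higher side (0.698%) and 8 on the lower (0.931%), beside 0.508% and 1.01% of all genes. Over all genes, 44.4% lay above 0.

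Cardiac muscle genes, which in mouse lung come from the muscle sleeves of the pulmonary veins, had the highest median, 1.09. All 16 members lay above 0 and none had an unadjusted p under 0.05. The ends were the calcium pump regulator Pln (1.6 ± 1.16) and the natriuretic peptide Nppa (0.15 ± 1.45). Myh6, the atrial myosin heavy chain, measured 5.59, 5.77 and 4.0 at 20 ppm, against 4.10, 1.70 and 4.90 in controls (1.56 ± 1.27). Control mouse 2 had the lowest value of the 6 mice for 15 of the 16 genes, and the summed signal of the list was 52 to 194 at 20 ppm and 18 to 99 in controls, in units of the array's 75th percentile. Leaving out single mice moved the median between 0.37 and 1.64.

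Glucocorticoid responsive genes lay higher in 18 of 21 cases, with a median of 0.45 that was 0.52 without the first mice. Per1, a clock gene that glucocorticoids also induce, measured 3.41, 3.64 and 3.96 at 20 ppm, against 1.56, 3.60 and 2.46 in controls, a difference of 1.13 ± 0.49 (adjusted p = 1). Tsc22d3, the glucocorticoid-induced leucine zipper, measured 4.89, 5.55 and 5.85 at 20 ppm and 4.19, 5.17 and 4.47 in controls, a difference of 0.82 ± 0.32 (adjusted p = 1). At the low end was the kinase Sgk1 at -0.12 ± 0.21. The groups overlapped for all 21 genes. Control mouse 1 had the lowest value for 17 and 20 ppm mouse 3 the highest for 12. The median deviation from the mean of the 6 mice was -0.57 in control mouse 1, where it was -0.13 over all genes. In 20 ppm mouse 3 it was 0.66, and 0.07 over all genes.

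Interferon stimulated genes lay above 0 in 21 of 25 cases, with a median of 0.28. Ifit3 measured 2.38, 3.27 and 3.16 at 20 ppm, against 1.84, 2.62 and 2.51 in controls, a difference of 0.61 ± 0.24 (adjusted p = 1). Oas2, which makes the signal that activates RNase L, measured 0.65, 1.56 and 1.81 at 20 ppm and 0.49, 0.63 and 0.63 in controls, with no overlap (0.76 ± 0.37). Irf7, the regulator of the interferon response, overlapped through 20 ppm mouse 1 (3.1, 3.95 and 4.02, against 3.24, 3.35 and 3.19). The lowest member was Isg20, an exonuclease, at -0.13 ± 0.15. The 2 wholly higher members of 25 compare with 1.49% of all genes.

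Lymphocyte genes lay lower, most of all in 20 ppm mouse 1. Of 24 T cell genes 1 lay above 0, the median was -0.29, and 5 were wholly lower at 20 ppm, where 4.38% of all genes were. Cd3g, a chain of the T cell receptor complex, measured 0.38, 0.41 and 0.57 at 20 ppm, against 0.98, 0.67 and 0.82 in controls, a difference of -0.37 ± 0.16 (adjusted p = 1). Icos, the inducible costimulator, differed by -0.35 ± 0.15 and Themis, a T cell selection factor, by -0.67 ± 0.24, both wholly lower. Themis lay at a dim level and differed by -0.22 with normexp. The 1 gene above 0 was Cd247, another receptor chain, at 0.54 ± 0.85, high in the first mouse of both groups (3.34 at 20 ppm and 3.73 on the control diet). Its other probes, both dimmer, gave -0.34 and -0.1.

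In 20 ppm mouse 1, 20 of the 24 T cell genes and 16 of 18 natural killer genes had their lowest value among the 6 mice. The like share over all genes was not counted. Median deviations from the mean of the 6 mice were -0.62, -0.89 and, over all genes, -0.19 in this mouse. Granzyme A (Gzma), of cytotoxic granules, measured 4.03, 5.81 and 6.0 at 20 ppm and 5.56, 5.20 and 5.81 in controls. The summed signal was 47 to 69 at 20 ppm and 62 to 74 in controls for T cell genes, and 40 to 116 against 73 to 101 for natural killer genes. Without the first mice the medians were -0.08 for T cells, 0.35 for natural killer cells and 0.12 for B cells, where with all mice they were -0.29, -0.11 and -0.24. The B cell coactivator Pou2af1 differed by -1.09 ± 0.43 with all mice (adjusted p = 1) and by -0.92 without the pair.

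**Figure D5:**
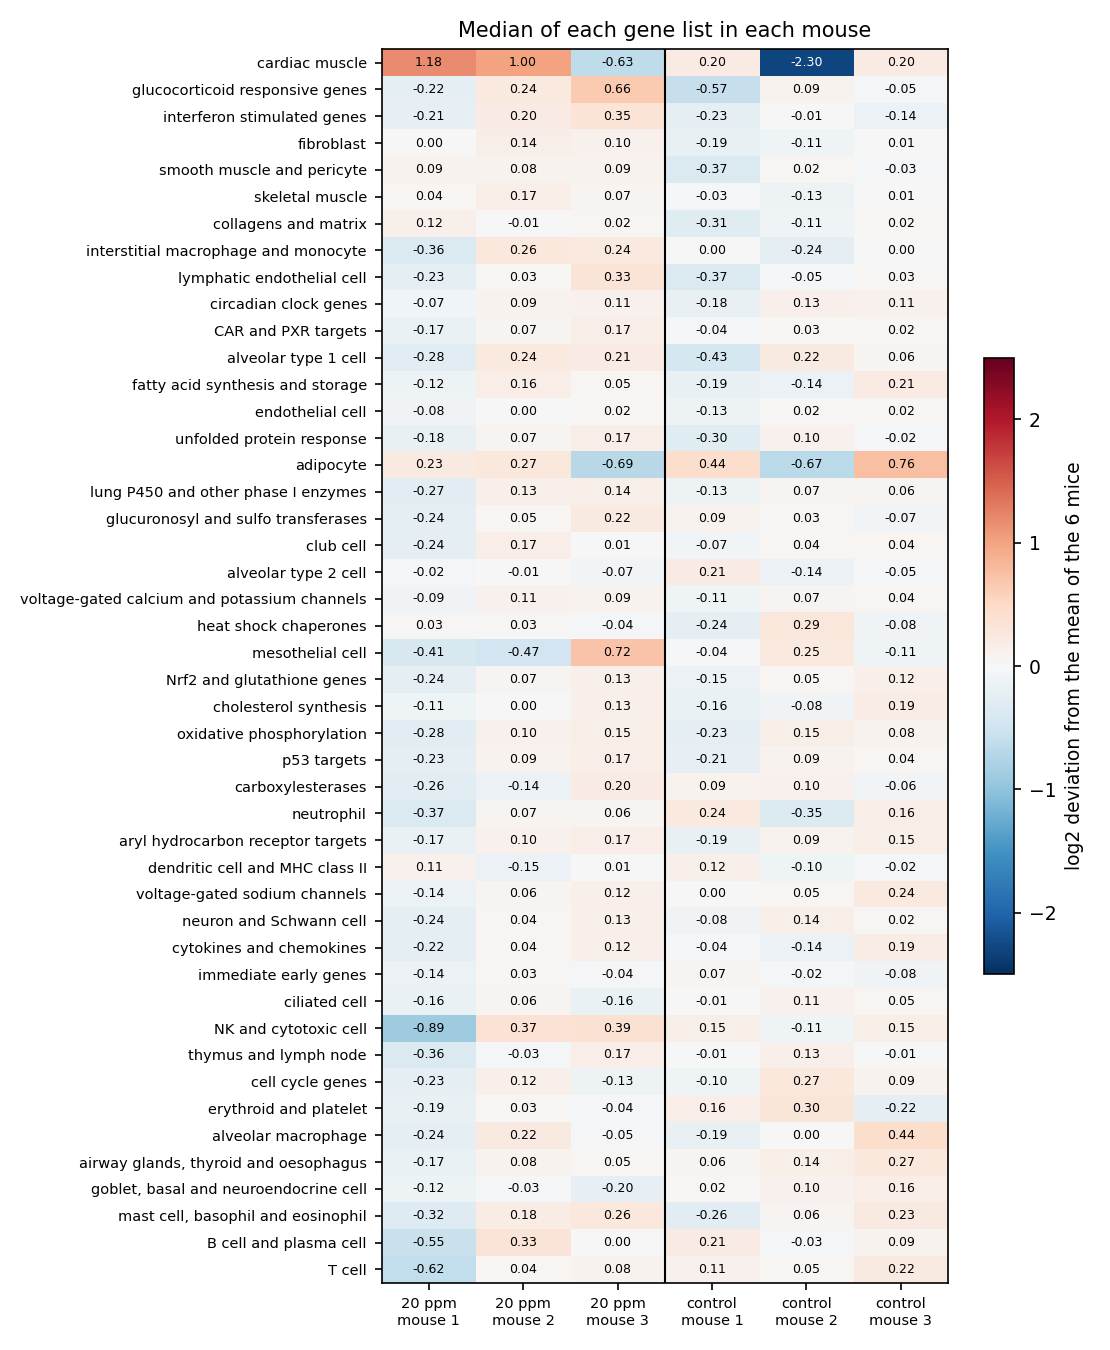
Median deviation (log2) of the measured members of each of 46 gene lists from their mean over the 6 mice, for the 3 mice at 20 ppm (left) and the 3 controls (right), ordered by the difference between the diets. Control mouse 2 is lowest for cardiac muscle (-2.30), and 20 ppm mouse 1 for natural killer genes (-0.89) and T cell genes (-0.62).

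Fibroblast genes (median 0.20, 17 of 19 above 0), smooth muscle genes (0.20, 15 of 18) and collagens and matrix genes (0.18, 25 of 31) lay slightly higher, with no member at an unadjusted p under 0.05. Wholly higher were 0 fibroblast, 3 smooth muscle and 1 matrix gene, beside 1.49% of all genes. The smooth muscle protein calponin (Cnn1) measured 3.79, 3.62 and 4.20 at 20 ppm, against 3.41, 3.13 and 3.11 in controls (0.66 ± 0.42). The ends of these lists were Tcf21 (0.52 ± 0.29) and Mfap5 (-0.03 ± 0.29) for fibroblasts, Rgs5 (-0.36 ± 0.33) at the low end for smooth muscle, and the protease Mmp2 (0.76 ± 0.75) and osteopontin Spp1 (-0.41 ± 0.45) for matrix. Control mouse 1 had the lowest list median for each of the 3 lists, at -0.19, -0.37 and -0.31. Cell cycle genes lay above 0 in 5 of 38 cases (median -0.12), and Mki67, the proliferation marker, differed by -0.16 ± 0.28. The spindle motor Kif11 (-0.66 ± 0.52) and the ribonucleotide reductase subunit Rrm1 (0.41 ± 0.21, wholly higher) were the ends of that list.

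Cytokines and chemokines had a median of -0.08 over 31 genes. Interleukin 6 (Il6), at the low end, measured -4.31, -4.18 and -3.40 at 20 ppm, against -2.05, -3.14 and -3.12 in controls, wholly lower at a dim level (-1.19 ± 0.52, adjusted p = 1), and -0.66 without the first mice. The neutrophil chemokine Cxcl5 was at the high end, at 0.80 ± 0.44. Of calcium and potassium channels (28 genes, median 0.02), Kcnh2, the potassium channel that repolarises the heart, measured 0.27, 0.24 and 0.58 at 20 ppm and -0.67, -0.72 and -0.55 in controls, wholly higher (1.01 ± 0.49, adjusted p = 1). A second, dimmer Kcnh2 probe gave 0.13. Of the 28 channel genes 4 lay wholly higher and 1 wholly lower, beside 1.49% and 4.38% of all genes. The calcium channel Cacna1g was at the other end, at -0.92 at a dim level. It differed by -0.19 with normexp, and a second Cacna1g probe, as dim, gave 0.

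The splicing factor Cwc22 was well above the level of most mice on the higher diets, both at 20 ppm and in controls. It measured 3.46, 1.96 and 2.92 at 20 ppm and 2.57, 2.05 and 1.47 in controls (0.75 ± 0.46). The groups overlapped, with 20 ppm mice 1 and 3 above every control, and other Cwc22 probes gave 1.0 and 0.59. Of the 9 mice on higher diets 8 measured -0.91 to -0.43 and the remaining one, at 5000 ppm, 1.13.

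Leaving out the first mouse of both groups gave calls that the unweighted fit with all 6 mice did not. There were 7, all lower, of which 3 have symbols and are named here after their values were seen. Ranbp1, which helps nuclear transport by the small GTPase Ran, measured 2.32, 1.48 and 1.44 at 20 ppm, against 2.22, 2.71 and 2.78 in controls. With all mice its difference was -0.82 ± 0.23 (adjusted p = 1), and without the first mice it was -1.28 (adjusted p = 0.03328).

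Pfdn1, a subunit of the prefoldin chaperone, measured 2.30, 2.04 and 2.07 at 20 ppm and 2.14, 3.27 and 3.02 in controls (-1.09 and adjusted p = 0.03328 without the first mice). Tcea3, a transcription elongation factor, measured 0.45, -0.61 and -0.79 at 20 ppm and -0.29, 0.68 and 0.98 in controls (-1.53 and adjusted p = 0.03328). For these 3 genes all 9 mice on the higher diets lay above the 3 mice at 20 ppm. They measured 2.45 to 2.77 for Ranbp1, 2.92 to 3.1 for Pfdn1 and 0.7 to 1.16 for Tcea3. For each gene 20 ppm mouse 1 lay above control mouse 1, whereas mice 2 and 3 at 20 ppm lay below those of the controls. The fit then compares 2 mice with 2, and its spread comes mainly from the other diets: with the 4 remaining mice alone no gene was called, and these 3 had the same differences at an adjusted p of 0.4379.

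The genes with the widest spread over the 6 mice are given as values. Fank1, an ankyrin repeat protein of testis, measured -0.56, -0.33 and -0.53 at 20 ppm and -7.53, -0.45 and -0.22 in controls, so that control mouse 1 alone was low. Ptprcap, which binds the leukocyte phosphatase CD45, was low in the same mouse (-7.52, against 1.30 to 2.70 in the other 5), as was the kinin receptor Bdkrb1 (-7.53, against -0.80 to -0.15). Each of these probes was well above background on only 2 control arrays. Their values in control mouse 1 lie at the level of undetected probes there, such as that of Ddx3y (-7.53). Scgb3a1, a secretoglobin of large airways, measured 5.80, 5.90 and 1.07 at 20 ppm and 4.74, 0.71 and 6.64 in controls, and Bpifb1, an airway secretory protein, was low in the same 2 mice (0.59, 2.63 and -2.53, against 2.17, -3.05 and 3.62).

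Reg3g, an antibacterial lectin of epithelium, and the fat cell protease Cfd were also low in these 2. Itln1, intelectin 1, measured -2.0, -2.38 and -2.79 at 20 ppm and -0.29, -2.67 and 4.7 in controls. Zbtb8b, a zinc finger protein, was low in the first mouse of each group (-4.29, 1.34 and 1.33 at 20 ppm, and -2.44, 2.73 and 1.06 in controls). Gdpd3, a phosphodiesterase, measured -2.14, -2.09 and -2.03 at 20 ppm and 3.09, -2.41 and 2.70 in controls. The MHC class II loading factor H2-DMa was high in the first mice (1.65, -1.54 and -1.20 at 20 ppm, and 1.41, -1.80 and -2.30 in controls). The immediate early gene Fos measured 1.67, 1.6 and 1.86 at 20 ppm and 3.27, 1.12 and 1.35 in controls, so that control mouse 1 was highest. The MHC class II chain H2-Eb1 measured 6.95, 5.59 and 6.22 at 20 ppm and 6.57, 1.76 and 5.74 in controls.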

How the data were processed

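Lung RNA of 15 mice was measured on 1-colour Agilent arrays, from 100 ng of RNA labelled with Cy3 (per the labels). The deposited scanner files hold spot intensity (linear, background-subtracted processed signal, Feature Extraction 10.7.3.1 per the file headers). A deposited log2 table equals log2 of it minus 1 constant per array (r 1).

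Here spots of a probe were averaged (56605 probes, 49 left out for outlier flags), and log2 signals were set to 0 at each array's 75th percentile. Probes well above background on all 3 arrays of either diet were kept (41776). RefSeq accessions gave symbols, and the brightest probe stands for a symbol. Limma 3.58.1 (R 4.3.3) fitted 1 coefficient per diet over all 15 arrays (10 residual degrees of freedom), and Benjamini-Hochberg adjustment ran over 33262 genes, two-sided. Errors are standard errors of that fit, with the spread taken over all 15 arrays. The fit was also run on simulated data with independent noise on each array. That setting lacks the shared deviations of the first mice, so it does not test the fit under them. The number of arrays limits the precision.

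Genes, lists and tests were chosen with earlier results of these data known. The text names, per direction, the 12 smallest p and 3 widest differences among genes whose groups do not overlap, the 10 with the widest spread (values only), the ends of lists described in detail, and 27 genes named in every case. Other examples, such as Tsc22d3, Ifit3, Irf7, Myh6, Cd3g, Icos and Gzma, were chosen after their values were seen. Like-numbered mice deviated together (r 0.627, 0.278 and 0.184), but 20 ppm mouse 3 with control mouse 2 (0.389) and 20 ppm mouse 2 with control mouse 3 (0.399) did so too. Deviations within a group cancel out, so agreement of the first mice makes the others agree as well. These values therefore cannot decide whether the mice were paired. A block for the replicate number was run as an alternative setting. Normexp correction, meant for mean signals, used the median ones that the files hold. The labels call the mice biological replicates.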

Additional observations from a re-analysis of the deposited data

How the results depend on the processing

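At 20 ppm against control, 0 genes were called under every setting run but 3: 1 unnamed transcript with only the 6 arrays of both diets, 35 genes with array weights (20 ppm mouse 1 at 0.22 and control mouse 1 at 0.23) and 7 without the first mouse of both groups. Most of the 35 genes lay lower at 20 ppm, as did all 7. Leaving out single mice gave 0 throughout. With the replicate block it was 0 as well, with 2083 genes at an unadjusted p under 0.05 on the 6 arrays and 584 over all 15, against 505 without it. The block changed no call. Counts at that p ran from 378 to 1634 with single mice left out (1184 without 20 ppm mouse 1 and 1634 without control mouse 1). They were 950 with the 6 arrays only, 1107 with the slide that holds both diets, 4086 with array weights, 1418 without the first mice, 3075 without them among the 6 arrays only and 1382 without mouse 3 at 500 and at 2500 ppm. The share of higher genes at that p was 33.5%, and 24.4% with the array median as the scale.

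At 5000 against 20 ppm, 19 genes were called, 10 with no filter, 6 with slide as a random block, 572 with array weights, 41 without mouse 3 at 500 and at 2500 ppm, and 8 to 20 with single mice left out (8 without 20 ppm mouse 1, 11 without 20 ppm mouse 3, control mouse 2 or control mouse 3). A difference smaller than its error was taken to have no direction. Of the others, these turned round: Nr4a1 (0.14 with array weights, 0.17 without the first mice), Il1b (0.29 and 0.12), Klra4 (0.11 and 0.12) and Cd22 (-0.05) with the mean of its probes. With single mice left out, Klra4 ran from -0.99 to 0.03, H2-DMb1 from -1.27 to 0.15 and Mmp2 from -0.09 to 1.7, each turned without 20 ppm mouse 1, and Rgs5 from -0.61 to 0.08, turned without control mouse 1. Nr4a1, Il1b and Klra4 without the first mice had the same values when only the 6 arrays were used, where 0 genes were called. The causes were not tested. With 3 outbred mice a diet, the median 95% interval was ± 0.54 (log2), and in the dimmest of 3 equal sets of genes 40.4% of intervals lay within 2-fold, against 91.7% in the brightest.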
